A study of Mus musculus with 24 samples.

Results

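The 35 genes described here code for collagens, other proteins of the extracellular matrix, the enzymes and chaperone that mature collagen, and contractile or secreted proteins typical of fibroblasts and related stromal cells. They were chosen by gene symbol and are 35 of the 47643 genes in a table of RNA-seq read counts from mouse macrophages. All 35 were found in the table, and 34 passed the filter on low counts, with Mgp the exception. The macrophages came from 2 sources. One set was grown from induced pluripotent stem cells, here called iPSC-derived, and the other from bone marrow, here called BM. In each source, libraries were made at day 0 from cells that had not been co-cultured, and then at days 3, 6 and 12 from cells in co-culture. The 8 groups hold 3 libraries each, described by the submitters as independent replicates, and the day 0 cells are the controls. The labels give no strain, age, sex, genotype or agent for any group, and they do not name the cells used for co-culture or say how the macrophages were recovered from them. A change from day 0 therefore covers both time and co-culture.

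Fibrillar collagens are trimers of gene products such as those of Col1a1 and Col1a2, and they form the tensile fibres of connective tissue. Type IV collagen and nidogen build the sheet-like basement membrane, while small proteoglycans such as decorin coat collagen fibrils and matricellular proteins such as thrombospondins and the CCN proteins signal to cells from within the matrix. Fibroblasts, pericytes and smooth muscle cells are the main producers of these transcripts in most tissues. Macrophages are known chiefly for taking up and remodelling matrix, although they make some of its components, among them fibronectin and thrombospondin-1.

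Library totals ran from 5839316 to 11805478 counts, and a library had 20 to 35 members with at least 1 count among iPSC-derived libraries and 11 to 33 among BM libraries. The macrophage markers Csf1r, Adgre1, Itgam and Ptprc had means of at least 80 CPM in all 8 groups. The replicates were not alike for these genes. BM day 0 replicate 2 had the highest value of its group in 22 of the 35 members and at least 1 count of 29 members, against 13 and 11 members in replicates 1 and 3. Without that library the log2 fold change of 17 of the 28 members called in BM macrophages at day 12 moved by over 1.5 times in fold, and without iPSC-derived day 0 replicate 3 the same held for 8 of 26 in iPSC-derived macrophages. Values given without such a library depend on the prior count of the fit where 3 or fewer counts were left at day 0. At day 6, iPSC-derived replicate 3 was the highest of its group in 24 members and replicate 2 the lowest in 24.

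**Figure D1:**
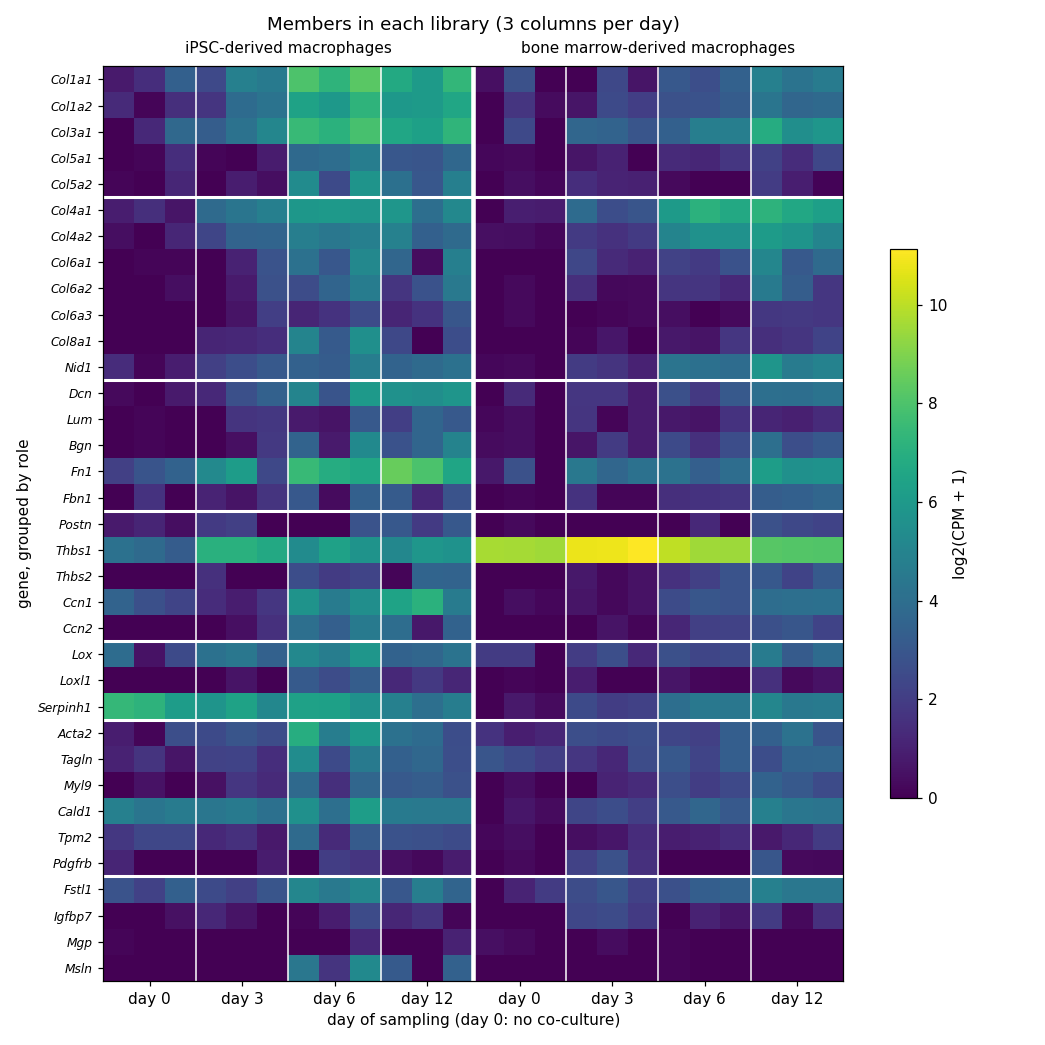
Level of each of the 35 members in each of the 24 libraries as log2(CPM + 1), with iPSC-derived libraries on the left, BM libraries on the right and 3 columns per day; white lines separate roles and groups. Most rows are dark at day 0 and bright at days 6 and 12, while Thbs1 is bright in all BM libraries and Serpinh1 in all iPSC-derived ones.

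Most transcripts of matrix and stromal genes were scarce at day 0 and rose during co-culture in libraries of both sources. Exceptions at day 0 were Thbs1 in BM cells, at a mean of 782 CPM, and Serpinh1 in iPSC-derived cells, at 128 CPM. Thbs1 alone outweighed all other members in BM cells up to day 6 and is left out of the sums that follow, while Serpinh1 is kept in them. The summed level of the other 34 members was 163 to 244 CPM at day 0, 189.5 to 325 CPM at day 3, 830.0 to 1652 CPM at day 6 and 857 to 1065 CPM at day 12 in iPSC-derived libraries. In BM libraries the same sum was 9.25 to 35.7 CPM at day 0, 73.5 to 102 CPM at day 3, 237 to 338 CPM at day 6 and 479 to 794 CPM at day 12. The sums of days 6 and 12 lay above all those of day 0 in both sources. In bulk RNA, more cells of a type and more RNA per cell cannot be told apart. Nor can RNA of the macrophages be told apart from that of any cells carried over from co-culture. The sum of 15 fibroblast markers outside the members also moved, to 29.6 to 31.8 CPM at day 12, against 3.5 to 9.33 CPM at day 0, in iPSC-derived libraries and to 35.1 to 50.2 CPM at day 12, against 0.387 to 0.696 CPM at day 0, in BM libraries, and its part in the members' rise was not tested. By group mean, 26 of the 35 members were highest at day 6 in iPSC-derived macrophages and 7 at day 12, whereas in BM macrophages 29 were highest at day 12. CPM are read counts scaled for library size. A gene is called, or said to rise or fall, where the adjusted p of edgeR's quasi-likelihood test with Benjamini-Hochberg adjustment over 15000 genes was below 0.05.

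In iPSC-derived macrophages at day 12 against day 0, 25 of the 34 tested members rose and 1 fell, where 14% of all tested genes rose and 10.7% fell. The median log2 fold change of the 34 members was 4.87, against 0.04 over all genes, and 4.67 with the 6 members at 0 counts on day 0 set at their bound. At day 6 against day 0, 27 members rose and 0 fell, where 14.3% of all genes rose and 11% fell. Of the members, 31 had an unadjusted p below 0.05, a rule for which the share of all genes is not given here. At day 3 against day 0, 11 rose and 2, Ccn1 and Serpinh1, fell, where 11.2% of all genes rose and 8.14% fell. The count of 13 fell to 8 without iPSC-derived day 0 replicate 1. The day 3 call of Serpinh1 was lost without day 0 replicate 1 or 2 or day 3 replicate 1 or 3 (adjusted p 0.0671 to 0.115). When only the compared groups were fitted, the day 3 calls of Ccn1 and Serpinh1 were both lost (adjusted p = 0.06155 and 0.0883). Between days 3 and 6, 12 members were higher and 1, Thbs1, was lower at day 6, where 1.06% of all genes were higher and 1.21% lower. This last count was the least stable, at 3 and 5 without day 3 replicates 1 and 2, 4 and 7 without day 6 replicates 1 and 3, and 1 when only the 2 groups were fitted. Between days 6 and 12 no member rose and 1, Serpinh1, fell, where 0.74% of all genes rose and 0.5% fell. In that step 7 members had an unadjusted p below 0.05, and DESeq2 called 3 members. The shares of all genes above are for edgeR's adjusted p and do not serve as background for these 2 counts. The Serpinh1 call in that step was lost without day 6 replicate 1 or 2 or day 12 replicate 1 or 2 (adjusted p 0.0534 to 0.157). It was also lost when only the compared groups were fitted (adjusted p = 0.2185). No member was called without day 6 replicate 1, day 12 replicate 1 or day 12 replicate 2, and 2 were called without day 6 replicate 2 or day 12 replicate 3.

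In BM macrophages at day 12 against day 0, 27 of the 34 tested members rose and 1, Thbs1, fell, where 14.7% of all genes rose and 9.08% fell. Their median log2 fold change was 5.17, against 0.04 over all genes, and 4.70 with the 5 members at 0 counts on day 0 and detected at day 12 set at their bound. At day 6 against day 0, 19 members rose and 0 fell, where 12.7% of all genes rose and 6.89% fell. That count was 10 without BM day 0 replicate 1, day 0 replicate 3 or day 6 replicate 3. At day 3 against day 0, 9 rose and 0 fell, where 11.9% of all genes rose and 6.61% fell. Between days 3 and 6, 5 members (Col4a1, Col4a2, Nid1, Ccn1 and Serpinh1) were higher and 1, Thbs1, was lower at day 6, where 0.413% of all genes were higher and 0.433% lower. Between days 6 and 12, Thbs1 alone was called and fell, where 0.147% of all genes rose and 0.373% fell. In that last step all 3 day 12 libraries lay above all 3 day 6 libraries in 18 members, where 12.2% of all genes did so. Fitted on those 2 groups alone, 14 of 30 tested members were higher and 1 was lower, where 4.43% of 12969 tested genes were higher and 3.26% lower. Of the members that rose by day 12, 19 rose in both sources, which is 76.0% of those in iPSC-derived and 70.4% of those in BM macrophages. Over all tested genes, 688 rose in both sources, which is 32.8% of those that rose in iPSC-derived and 31.2% of those that rose in BM macrophages.

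Most chains of fibril-forming collagens rose in both sources, and they reached their highest levels in iPSC-derived macrophages. Col1a1 codes for the major chain of type I collagen. Col1a1 stood at 0.766, 1.75 and 9.65 CPM at day 0, 4.41, 27.4 and 23 CPM at day 3, 258, 151 and 308 CPM at day 6, and 108, 65.2 and 165 CPM at day 12 in the iPSC-derived replicates. Col1a1 in the BM replicates stood at 0.387, 5.8 and 0 CPM at day 0, 0, 4.35 and 0.558 CPM at day 3, 7.45, 5.44 and 10.1 CPM at day 6, and 27.4, 17.9 and 23.6 CPM at day 12. All co-cultured libraries of days 6 and 12 lay above all day 0 libraries of the same source, except that 1 BM day 6 value lay below the highest BM day 0 value. At day 12 Col1a1 averaged 113 ± 50.1 CPM, against 4.06 ± 4.87 CPM at day 0, in iPSC-derived macrophages (log2 fold change 4.79 ± 1.00 SE, adjusted p = 0.00174; SD, n = 3 each). In BM macrophages it averaged 23 ± 4.74 CPM at day 12, against 2.06 ± 3.24 CPM at day 0 (log2 fold change 3.41 ± 1.04 SE, adjusted p = 0.0224). Without the day 0 library with the highest Col1a1, the log2 fold change was 6.47 in iPSC-derived and 6.8 in BM macrophages. The BM call was lost without day 0 replicate 1, day 0 replicate 3 or day 12 replicate 1, at adjusted p values of 0.0562 to 0.0965.

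Col1a2, the partner chain of type I collagen, stood at 1.53, 0.109 and 1.82 CPM at day 0, 2.26, 13.7 and 17.6 CPM at day 3, 82.8, 60.4 and 149.7 CPM at day 6, and 60.6, 65.9 and 94.6 CPM at day 12 in the iPSC-derived replicates. Col1a2 in BM replicates stood at 0, 2.32 and 0.261 CPM at day 0, 0.547, 4.65 and 3.24 CPM at day 3, 5.86, 6.08 and 8.42 CPM at day 6, and 19.1, 11.6 and 13 CPM at day 12. In both sources every day 12 library lay above every day 0 library. Col1a2 rose by day 12 in iPSC-derived (log2 fold change 5.98 ± 0.87 SE, adjusted p = 3.8e-05) and in BM macrophages (log2 fold change 4.00 ± 0.88 SE, adjusted p = 0.00211). Without BM day 0 replicate 2 the BM value was 6.67. Col3a1, the single chain of type III collagen found with type I in elastic tissues, stood at 0, 1.42 and 12.4 CPM at day 0, 8.83, 17.1 and 33.6 CPM at day 3, 180.3, 136 and 234 CPM at day 6, and 95.6, 77.9 and 155 CPM at day 12 in the iPSC-derived replicates. Col3a1 in BM replicates stood at 0, 4.41 and 0 CPM at day 0, 11.6, 10.7 and 6.59 CPM at day 3, 9.69, 25.9 and 26 CPM at day 6, and 119, 44.4 and 56.8 CPM at day 12. The day 12 libraries again lay above all day 0 libraries in both sources. Col3a1 rose by day 12 in iPSC-derived (log2 fold change 4.56 ± 0.99 SE, adjusted p = 0.00235) and in BM macrophages (log2 fold change 5.56 ± 1.11 SE, adjusted p = 0.0011). The iPSC-derived value was 7.24 without day 0 replicate 3, and all BM day 0 counts of Col3a1 were in replicate 2.

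Type V collagen nucleates type I fibrils, and of its chains Col5a2 was higher in iPSC-derived than in BM macrophages at days 6 and 12. Col5a2 stood at 0.109, 0 and 1.29 CPM at day 0, 0, 0.842 and 0.344 CPM at day 3, 40.03, 4.71 and 52.5 CPM at day 6, and 16.3, 7.11 and 26.9 CPM at day 12 in the iPSC-derived replicates. Col5a2 in BM replicates stood at 0, 0.348 and 0.13 CPM at day 0, 1.75, 1.19 and 1.005 CPM at day 3, 0.213, 0 and 0 CPM at day 6, and 2.91, 0.892 and 0.08995 CPM at day 12. The lowest iPSC-derived value of days 6 and 12 lay above the highest BM value of any day. Col5a2 rose by day 12 in iPSC-derived macrophages (log2 fold change 5.12 ± 1.12 SE, adjusted p = 0.00178; 7.93 without day 0 replicate 3), while the BM change was not called (log2 fold change 2.86 ± 1.37 SE, adjusted p = 0.141). Col5a1 stayed below 20 CPM on average in all groups. Col5a1 spanned 6.73 to 12.2 CPM at day 12 and 0 to 1.72 CPM at day 0 in iPSC-derived cells and rose (log2 fold change 3.8 ± 0.97 SE, adjusted p = 0.00518; 6.99 without day 0 replicate 3). In BM cells Col5a1 spanned 1.69 to 4.14 CPM at day 12 and 0 to 0.232 CPM at day 0 and also rose (ratio 24.9, 95% interval 8.29 to 123, adjusted p = 0.00628), with its 3 day 0 counts in replicates 1 and 2. A ratio with an interval is given where a group held 1 to 3 counts. Where a group held 0 counts, the fold is a lower bound against a floor of 3 counts over its libraries. Both cover counting error only.

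**Figure D2:**
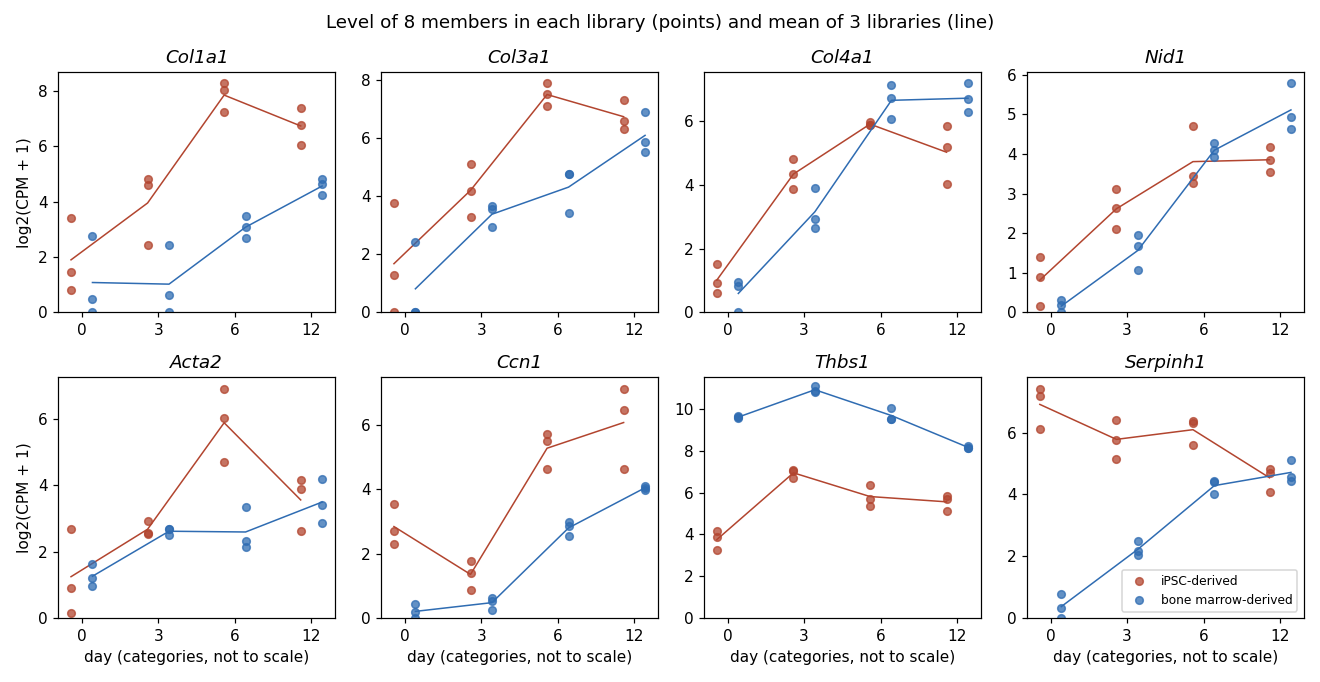
Level of 8 members in each library as log2(CPM + 1) against day, with points for libraries and a line through the mean of 3 libraries. Col1a1, Col3a1 and Col4a1 are higher at days 6 and 12 than at day 0 in both sources by group mean, Thbs1 lies higher in every BM library than in any iPSC-derived one, and Serpinh1 starts high in iPSC-derived and near 0 in BM macrophages.

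Both type IV collagen chains and nidogen-1 rose in both sources, and at day 12 the type IV chains were lower in iPSC-derived than in BM macrophages. Col4a1 and Col4a2, the 2 chains of the common type IV collagen network, lie head to head on mouse chromosome 8 with start sites 21 bases apart. Their promoter windows are shown because the 2 genes rose together and share 78 bases, given in capitals. Both are from RefSeq on GRCm38.p6, 5′ to 3′ on the strand of the gene, from 250 bases before to 50 bases after the start.
Col4a1, chr8:11312777-11313076, minus strand: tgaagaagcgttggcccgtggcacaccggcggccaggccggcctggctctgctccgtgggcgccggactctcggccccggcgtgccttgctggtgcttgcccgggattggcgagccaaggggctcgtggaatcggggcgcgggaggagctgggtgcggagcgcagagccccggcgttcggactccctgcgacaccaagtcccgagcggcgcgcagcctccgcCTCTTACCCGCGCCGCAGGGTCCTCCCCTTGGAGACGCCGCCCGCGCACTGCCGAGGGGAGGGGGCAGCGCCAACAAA
Col4a2, chr8:11312555-11312854, plus strand: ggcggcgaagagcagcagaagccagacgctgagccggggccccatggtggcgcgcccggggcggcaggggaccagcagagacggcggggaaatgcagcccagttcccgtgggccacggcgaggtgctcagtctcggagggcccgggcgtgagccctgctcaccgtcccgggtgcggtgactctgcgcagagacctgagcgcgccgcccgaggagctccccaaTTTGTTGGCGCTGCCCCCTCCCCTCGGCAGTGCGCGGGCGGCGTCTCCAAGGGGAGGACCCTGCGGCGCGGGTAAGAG
Each window holds the letters CCAAT and GGGCGG when both strands are searched, motifs that occur in 37.4% and 35.7% of all 32851 windows. A match describes these letters and is no evidence of binding.

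Col4a1 stood at 0.875, 1.86 and 0.536 CPM at day 0, 13.5, 19.1 and 26.9 CPM at day 3, 57.3, 61.5 and 56.8 CPM at day 6, and 56.7, 15.1 and 35.5 CPM at day 12 in the iPSC-derived replicates. Col4a1 in BM replicates stood at 0, 0.928 and 0.782 CPM at day 0, 13.8, 5.24 and 6.59 CPM at day 3, 66.1, 139 and 104 CPM at day 6, and 143, 102 and 76.1 CPM at day 12. Every co-cultured library lay above every day 0 library of its source. Col4a1 rose by day 12 in iPSC-derived (log2 fold change 5.02 ± 0.59 SE, adjusted p = 2.3e-06; 5.63 without day 0 replicate 2) and in BM macrophages (log2 fold change 7.49 ± 0.67 SE, adjusted p = 4.9e-08). Col4a2 stood at 0.328, 0 and 1.29 CPM at day 0, 4.002, 10.5 and 11.1 CPM at day 3, 25.9, 20.5 and 27.2 CPM at day 6, and 29, 9.76 and 13.2 CPM at day 12 in the iPSC-derived replicates. Col4a2 in BM replicates stood at 0.387, 0.348 and 0.13 CPM at day 0, 2.73, 1.98 and 2.68 CPM at day 3, 31.3, 48.3 and 47.9 CPM at day 6, and 68.5, 52.7 and 31.7 CPM at day 12. The order of the groups was that of Col4a1, and no co-cultured library overlapped with day 0. Col4a2 rose by day 12 in iPSC-derived (log2 fold change 4.96 ± 0.61 SE, adjusted p = 1.7e-06; 6.6 without day 0 replicate 3) and in BM macrophages (log2 fold change 7.39 ± 0.68 SE, adjusted p = 2.2e-08). Both genes had already risen by day 3 in both sources, and in BM macrophages both rose again between days 3 and 6 (Col4a1 log2 fold change 3.6 ± 0.49 SE, adjusted p = 0.000395; Col4a2 log2 fold change 4.1 ± 0.52 SE, adjusted p = 1.0e-04).

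Nid1, nidogen-1, links the type IV collagen and laminin networks. Nid1 stood at 1.64, 0.109 and 0.858 CPM at day 0, 3.28, 5.18 and 7.69 CPM at day 3, 9.88, 8.56 and 25.3 CPM at day 6, and 10.7, 13.4 and 17 CPM at day 12 in the iPSC-derived replicates. Nid1 in BM replicates stood at 0.129, 0.232 and 0 CPM at day 0, 2.84, 2.18 and 1.12 CPM at day 3, 18.2, 16.2 and 14.1 CPM at day 6, and 54, 23.6 and 29.5 CPM at day 12. The BM day 12 libraries were the highest of all and did not overlap with any iPSC-derived group except day 6, whose replicate 3 lay above the lowest of them. Nid1 rose by day 12 in iPSC-derived macrophages (log2 fold change 3.95 ± 0.59 SE, adjusted p = 2.0e-05; 4.77 without day 0 replicate 1). In BM macrophages, with 3 counts in all at day 0, it rose by a ratio of 284, 95% interval 97 to 1380.2 (adjusted p = 4.2e-08). Col8a1, a short-chain collagen of vascular and corneal matrix, had 0 counts at day 0 in both sources. Col8a1 stood at 0, 0 and 0 CPM at day 0, 1.23, 1.32 and 1.72 CPM at day 3, 30.9, 7.81 and 44.8 CPM at day 6, and 4.31, 0 and 5.16 CPM at day 12 in the iPSC-derived replicates. Col8a1 in BM replicates stood at 0, 0 and 0 CPM at day 0, 0.109, 0.594 and 0 CPM at day 3, 0.639, 0.48 and 2.34 CPM at day 6, and 1.8, 2.28 and 3.69 CPM at day 12. The iPSC-derived day 6 libraries lay above all others, and 1 iPSC-derived day 12 library held no count. By day 12 Col8a1 was at least 27.8-fold higher in iPSC-derived (adjusted p = 0.00317) and at least 21.1-fold higher in BM macrophages (adjusted p = 0.00554).

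The 3 chains of type VI collagen, which forms beaded microfibrils near cells, rose by day 12 in both sources, with 0 to 3 counts per group at day 0. All day 0 counts of Col6a2 were in replicate 3 of the iPSC-derived and replicate 2 of the BM cells, and those of Col6a3 were in BM replicate 2. At day 12 the highest Col6a1 and Col6a2 values were in iPSC-derived replicate 3 and BM replicate 1. The first held 266 counts of Col6a1 and 212 of Col6a2, and the second 333 and 228. Col6a1 ranged from 0.284 to 26.9 CPM at day 12 in iPSC-derived cells (ratio 176, 95% interval 48.4 to 1459, adjusted p = 0.00484) and from 7.54 to 33.4 CPM in BM cells (at least 143-fold higher, adjusted p = 0.00211). Col6a2 ranged from 2.28 to 21.4 CPM at day 12 in iPSC-derived cells (ratio 94.3, 95% interval 32 to 459.9, adjusted p = 0.00418) and from 2.34 to 22.9 CPM in BM cells (ratio 132, 95% interval 36.1 to 1091, adjusted p = 0.00319). Col6a3 was rarer, at 1.2 to 6.88 CPM in iPSC-derived (at least 32-fold higher, adjusted p = 0.00264) and 2.34 to 2.58 CPM in BM cells (ratio 29.7, 95% interval 7.95 to 249.7, adjusted p = 0.0217). The BM call of Col6a3 was lost without day 0 replicate 1 or day 0 replicate 3, at adjusted p values of 0.0833 to 0.0854.

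Among fibre glycoproteins and small proteoglycans, fibronectin and decorin rose in both sources. Fn1 codes for fibronectin, a cell-adhesive glycoprotein on which collagen assembles. Fn1 stood at 3.28, 6.35 and 10.4 CPM at day 0, 36.9, 69.9 and 4.36 CPM at day 3, 178, 116 and 98.9 CPM at day 6, and 368, 247 and 92 CPM at day 12 in the iPSC-derived replicates. Fn1 in BM replicates stood at 0.644, 5.68 and 0 CPM at day 0, 20.8, 11.8 and 17 CPM at day 3, 17.1, 9.28 and 14.5 CPM at day 6, and 71.4, 47 and 49.5 CPM at day 12. All day 12 libraries lay above all day 0 libraries, and the iPSC-derived day 12 libraries differed widely among themselves. Fn1 rose by day 12 in iPSC-derived (log2 fold change 5.14 ± 0.88 SE, adjusted p = 0.000263) and in BM macrophages (log2 fold change 4.67 ± 0.93 SE, adjusted p = 0.00105; 7.38 without day 0 replicate 2). Dcn codes for decorin, which binds collagen fibrils and growth factors. Dcn stood at 0.219, 0 and 0.751 CPM at day 0, 1.44, 5.54 and 9.87 CPM at day 3, 31, 6.45 and 61.1 CPM at day 6, and 48.5, 44.2 and 53.9 CPM at day 12 in the iPSC-derived replicates. Dcn in BM replicates stood at 0, 1.51 and 0 CPM at day 0, 2.4, 2.37 and 0.781 CPM at day 3, 5.54, 2.56 and 7.72 CPM at day 6, and 15.6, 15.4 and 17.7 CPM at day 12. At day 12 the replicates of each source were close to one another and the iPSC-derived ones lay above the BM ones. Dcn rose by day 12 in iPSC-derived (log2 fold change 7.17 ± 1.05 SE, adjusted p = 3.4e-05; 8.63 without day 0 replicate 3) and in BM macrophages (log2 fold change 4.9 ± 0.98 SE, adjusted p = 0.000833; all its day 0 counts were in replicate 2).

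The remaining members of this role stayed below 20 CPM on average. Bgn, biglycan, rose by day 12 in iPSC-derived (ratio 447, 95% interval 79.8 to 17688, adjusted p = 0.000711) and in BM macrophages (log2 fold change 5.43 ± 1.36 SE, adjusted p = 0.00526; 6.05 without day 0 replicate 2). Lum, lumican, had 1 count at day 0 in iPSC-derived macrophages and rose (ratio 212, 95% interval 37.6 to 8408, adjusted p = 0.00164), while in BM macrophages it was at 0.991 to 1.62 CPM at day 12 and 0 to 0.348 CPM at day 0 and was not called (adjusted p = 0.132). The single day 0 counts of Lum and Bgn in iPSC-derived cells were both in replicate 2, and that of Fbn1 in BM cells was in replicate 2. Fbn1, the fibrillin of elastic microfibrils, was called in BM macrophages (ratio 243, 95% interval 43.3 to 9629.7, adjusted p = 0.00184) and not in iPSC-derived ones (log2 fold change 2.9 ± 1.2 SE, adjusted p = 0.0834). The difference between the sources in these changes was itself not called for Lum (adjusted p = 0.18) or Fbn1 (adjusted p = 0.135).

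**Figure D3:**
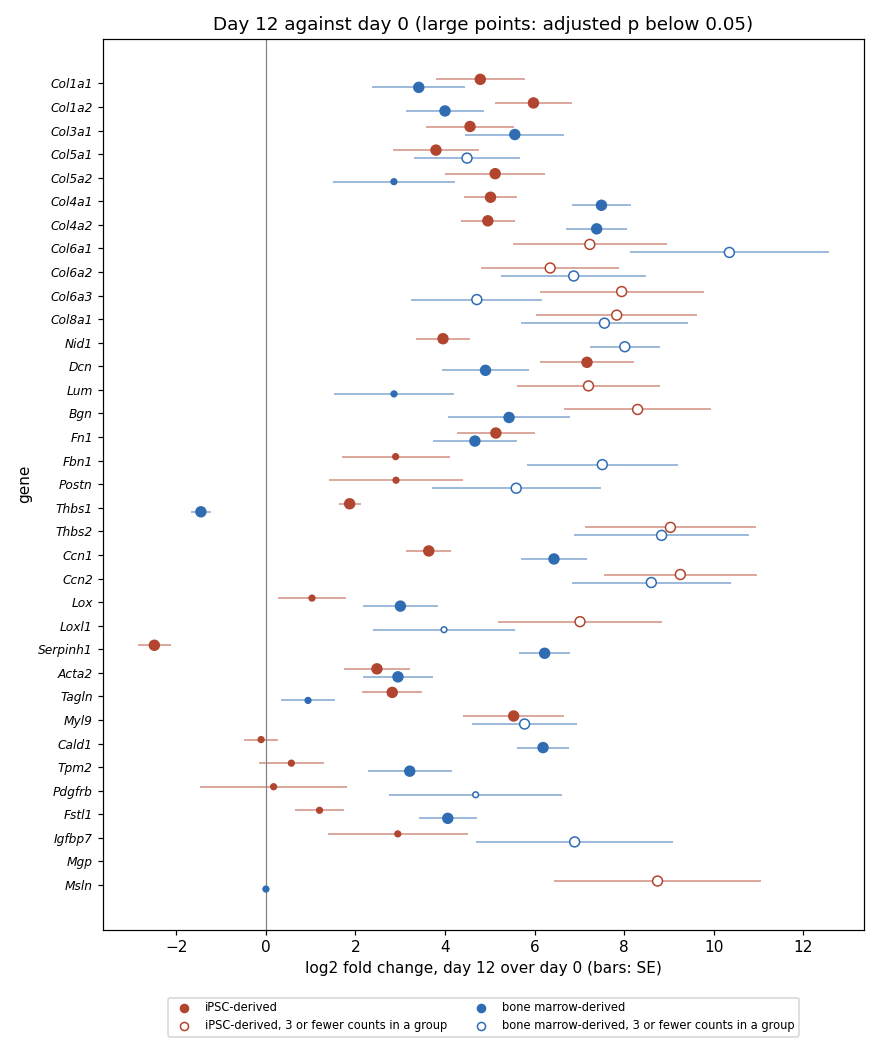
Log2 fold change at day 12 over day 0 for each member, with iPSC-derived macrophages above BM macrophages in each row and bars of 1 SE; large points have an adjusted p below 0.05 and open points have 3 or fewer counts in a group, where the fitted value depends on the prior count. Nearly all points lie to the right of 0, and those of Serpinh1 and Thbs1 lie on opposite sides for the 2 sources.

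Matricellular genes included the one member that BM macrophages expressed strongly from the start. Thbs1 codes for thrombospondin-1, a secreted regulator of adhesion and of latent TGF-beta that monocytes and macrophages are known to make. Thbs1 stood at 16.6, 13.6 and 8.47 CPM at day 0, 131, 134 and 103 CPM at day 3, 39.7, 81.7 and 51.4 CPM at day 6, and 34, 56.7 and 50.5 CPM at day 12 in the iPSC-derived replicates. Thbs1 in BM replicates stood at 822, 777 and 748 CPM at day 0, 1769, 1849 and 2224 CPM at day 3, 1049.9, 729 and 726 CPM at day 6, and 297, 283 and 277 CPM at day 12. Every BM library lay above every iPSC-derived library, and in both sources day 3 was highest. Thbs1 rose by day 3 in iPSC-derived (log2 fold change 3.25 ± 0.25 SE, adjusted p = 2.1e-09) and in BM macrophages (log2 fold change 1.32 ± 0.23 SE, adjusted p = 0.000153). By day 12 it stood above day 0 in iPSC-derived macrophages (log2 fold change 1.87 ± 0.25 SE, adjusted p = 4.4e-06) and below day 0 in BM macrophages (log2 fold change -1.45 ± 0.23 SE, adjusted p = 4.1e-05). The difference between these changes, iPSC-derived minus BM, was 3.32 ± 0.34 SE on the log2 scale (adjusted p = 1.8e-07).

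Ccn1 codes for CYR61, an immediate-early matricellular protein. Ccn1 stood at 10.6, 5.47 and 3.86 CPM at day 0, 1.64, 0.842 and 2.41 CPM at day 3, 51.3, 23.4 and 44.1 CPM at day 6, and 86.8, 138 and 23.9 CPM at day 12 in the iPSC-derived replicates. Ccn1 in BM replicates stood at 0, 0.348 and 0.13 CPM at day 0, 0.547, 0.198 and 0.447 CPM at day 3, 4.9, 6.88 and 6.2 CPM at day 6, and 14.7, 15.5 and 16.3 CPM at day 12. In iPSC-derived macrophages all 3 day 3 libraries lay below all 3 day 0 libraries. That fall was called (log2 fold change -2.01 ± 0.54 SE, adjusted p = 0.00963), and the call was lost without day 0 replicate 1 or day 3 replicate 2 (adjusted p 0.0606 to 0.0786). It was also lost when only the compared groups were fitted (adjusted p = 0.06155). Ccn1 then rose between days 3 and 6 (log2 fold change 4.59 ± 0.55 SE, adjusted p = 7.6e-05). By day 12 Ccn1 had risen in iPSC-derived (log2 fold change 3.64 ± 0.50 SE, adjusted p = 8.0e-06) and in BM macrophages (log2 fold change 6.43 ± 0.75 SE, adjusted p = 7.2e-07; 7.63 without day 0 replicate 2). Ccn2, connective tissue growth factor, had 0 counts at day 0 in both sources and was at least 73.2-fold higher in iPSC-derived (adjusted p = 0.000456) and at least 42.7-fold higher in BM macrophages (adjusted p = 0.00119) at day 12. Thbs2, the anti-angiogenic relative of Thbs1, also started from 0 counts and was at least 70.6-fold higher in iPSC-derived (adjusted p = 0.00154) and at least 50.9-fold higher in BM macrophages (adjusted p = 0.00212) at day 12. The iPSC-derived day 12 libraries were uneven, with 7 counts of Ccn2 in replicate 2 and 1 count of Thbs2 in replicate 1. Postn, periostin, was called in BM macrophages (ratio 54.8, 95% interval 14.9 to 457, adjusted p = 0.0359), a call that was lost on leaving out any 1 of the 6 libraries (adjusted p 0.0549 to 0.125), and not in iPSC-derived macrophages (adjusted p = 0.171).

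The collagen-specific chaperone behaved unlike the collagens in iPSC-derived cells. Serpinh1 codes for HSP47, which folds procollagen in the endoplasmic reticulum. Serpinh1 stood at 170.2, 146 and 69 CPM at day 0, 53.7, 84.1 and 34.8 CPM at day 3, 81.7, 78.4 and 47.7 CPM at day 6, and 27.4, 15.9 and 25.1 CPM at day 12 in the iPSC-derived replicates. Serpinh1 in BM replicates stood at 0, 0.696 and 0.261 CPM at day 0, 4.59, 3.07 and 3.46 CPM at day 3, 15, 20.8 and 20.2 CPM at day 6, and 33.9, 20.7 and 22.8 CPM at day 12. The iPSC-derived day 12 libraries lay below all day 0 libraries, whereas the BM day 12 libraries lay above all BM day 0 libraries and overlapped with the iPSC-derived day 12 libraries. Serpinh1 fell by day 12 in iPSC-derived macrophages (log2 fold change -2.49 ± 0.37 SE, adjusted p = 1.9e-05) and rose in BM macrophages (log2 fold change 6.23 ± 0.56 SE, adjusted p = 2.1e-08; 7.5 without day 0 replicate 2). The difference between the changes, iPSC-derived minus BM, was -8.72 ± 0.67 SE on the log2 scale (adjusted p = 5.5e-09).

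Lox codes for lysyl oxidase, which cross-links collagen and elastin. Lox stood at 14.2, 0.438 and 4.72 CPM at day 0, 16.8, 20.1 and 10.1 CPM at day 3, 35.2, 25.2 and 57 CPM at day 6, and 10.2, 11.8 and 17.6 CPM at day 12 in the iPSC-derived replicates. Lox in BM replicates stood at 2.84, 2.78 and 0 CPM at day 0, 2.95, 5.44 and 1.45 CPM at day 3, 5.54, 3.998 and 4.68 CPM at day 6, and 23.8, 8.03 and 13.9 CPM at day 12. Day 0 was uneven in iPSC-derived macrophages, and only the day 6 libraries lay wholly above it. Lox rose by day 6 in iPSC-derived macrophages (log2 fold change 2.6 ± 0.78 SE, adjusted p = 0.0181), at 3.91 without day 0 replicate 1. The call was lost without day 0 replicate 3 or day 6 replicate 3 (adjusted p 0.0561 to 0.0716) and when only the compared groups were fitted (adjusted p = 0.0693). The day 12 change of Lox there was not called (adjusted p = 0.356). In BM macrophages Lox rose by day 12 (log2 fold change 3.00 ± 0.85 SE, adjusted p = 0.0127), a call lost without day 12 replicate 1 (adjusted p = 0.057). Loxl1, its relative in elastic fibres, had 0 counts at day 0 in iPSC-derived macrophages and was at least 67.9-fold higher at day 6 (adjusted p = 0.000922) and at least 16.6-fold higher at day 12 (adjusted p = 0.00718). It was not called in BM macrophages at day 12 (adjusted p = 0.0732).

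Contractile genes of smooth muscle and myofibroblasts had their highest means at day 6 in iPSC-derived macrophages. Acta2 codes for smooth muscle alpha-actin. Acta2 stood at 0.875, 0.109 and 5.36 CPM at day 0, 4.72, 6.62 and 4.94 CPM at day 3, 119, 25.2 and 64 CPM at day 6, and 16.8, 13.8 and 5.16 CPM at day 12 in the iPSC-derived replicates. Acta2 in BM replicates stood at 2.06, 0.928 and 1.3 CPM at day 0, 5.36, 4.65 and 5.36 CPM at day 3, 3.94, 3.36 and 9.12 CPM at day 6, and 9.62, 17.4 and 6.3 CPM at day 12. The 3 iPSC-derived day 6 libraries lay above every other library. Acta2 rose by day 6 in iPSC-derived macrophages (log2 fold change 5.02 ± 0.79 SE, adjusted p = 6.3e-05), at 7.1 without day 0 replicate 3 and 4.42 without day 6 replicate 1. By day 12 it stood above day 0 in iPSC-derived (log2 fold change 2.48 ± 0.74 SE, adjusted p = 0.0168) and in BM macrophages (log2 fold change 2.95 ± 0.78 SE, adjusted p = 0.00779), although 1 iPSC-derived day 12 library lay below the highest day 0 library. The iPSC-derived day 12 call was lost without day 0 replicate 1, day 0 replicate 2 or day 12 replicate 1 (adjusted p 0.0568 to 0.0835) and stood at a log2 fold change of 4.55 without day 0 replicate 3. That call was also lost when only the compared groups were fitted (adjusted p = 0.114).

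Tagln codes for transgelin, an actin-bundling protein of smooth muscle. Tagln stood at 1.09, 2.19 and 0.536 CPM at day 0, 3.59, 3.73 and 1.72 CPM at day 3, 42, 4.71 and 22.8 CPM at day 6, and 9.71, 12.1 and 5.36 CPM at day 12 in the iPSC-derived replicates. Tagln in BM replicates stood at 6.57, 4.64 and 3.13 CPM at day 0, 2.4, 1.39 and 5.02 CPM at day 3, 7.24, 3.84 and 9.12 CPM at day 6, and 5.21, 10.9 and 11.4 CPM at day 12. Its BM day 0 libraries lay above the iPSC-derived ones. Tagln rose by day 12 in iPSC-derived macrophages (log2 fold change 2.82 ± 0.67 SE, adjusted p = 0.00303; 3.45 without day 0 replicate 2), and the BM change was not called (log2 fold change 0.94 ± 0.61 SE, adjusted p = 0.289). Cald1 codes for caldesmon, which regulates actomyosin. Cald1 stood at 27.6, 19.3 and 24 CPM at day 0, 19.5, 21.9 and 16.3 CPM at day 3, 47.4, 15.7 and 72.1 CPM at day 6, and 22.4, 21.6 and 21.8 CPM at day 12 in the iPSC-derived replicates. Cald1 in BM replicates stood at 0, 0.58 and 0.261 CPM at day 0, 3.94, 5.14 and 3.13 CPM at day 3, 7.56, 11.7 and 7.6 CPM at day 6, and 27.9, 19.8 and 18.6 CPM at day 12. It was near 0 in BM day 0 libraries and between 15.7 and 72.1 CPM in all iPSC-derived ones. Cald1 rose by day 12 in BM macrophages (log2 fold change 6.19 ± 0.58 SE, adjusted p = 2.2e-08; 7.28 without day 0 replicate 2), while the iPSC-derived change was not called (log2 fold change -0.11 ± 0.38 SE, adjusted p = 0.877). The difference between the changes was -6.3 ± 0.70 SE on the log2 scale (adjusted p = 5.9e-07).

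Of the rarer contractile members, Myl9, a smooth muscle myosin light chain, rose by day 12 in iPSC-derived (log2 fold change 5.53 ± 1.13 SE, adjusted p = 0.000728; all its day 0 counts were in replicate 2) and in BM macrophages (ratio 59.2, 95% interval 19.99 to 289, adjusted p = 0.000626), where all 3 day 0 counts were in replicate 2. Its promoter window is shown because, of the 22 member genes with a RefSeq window, it was the only one with a strict CArG box. This motif of serum response factor was searched as CC, 6 letters of A or T, and GG. Its match is given in capitals.
Myl9, chr2:156775214-156775513, plus strand: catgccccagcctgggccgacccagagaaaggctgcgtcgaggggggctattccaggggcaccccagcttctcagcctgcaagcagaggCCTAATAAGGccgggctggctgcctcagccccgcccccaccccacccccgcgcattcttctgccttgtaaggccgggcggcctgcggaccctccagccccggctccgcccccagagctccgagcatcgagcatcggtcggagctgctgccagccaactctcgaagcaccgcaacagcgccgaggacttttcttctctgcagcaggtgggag
Searched on both strands, this strict pattern occurs in 1.63% of all 32851 windows. Its absence from a window says only that these letters are not there, and variants with C or G in the core were not searched. Tpm2, beta-tropomyosin, rose by day 12 in BM (log2 fold change 3.21 ± 0.94 SE, adjusted p = 0.0136; 4.41 without day 0 replicate 2 and 2.58 without day 12 replicate 3) and was not called in iPSC-derived macrophages (adjusted p = 0.616). The BM call was lost without day 0 replicate 1, day 0 replicate 3 or day 12 replicate 3 (adjusted p 0.0549 to 0.0748). Pdgfrb, the platelet-derived growth factor receptor of pericytes and fibroblasts, was not called against day 0 at any day in either source. Pdgfrb held 48 counts at iPSC-derived day 6, 109 at BM day 3 and 73 at BM day 12. Nearly all of those at BM day 12 were in replicate 1.

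Of the secreted members, Fstl1 rose in BM macrophages and Msln was detected almost solely in iPSC-derived ones. Fstl1 codes for follistatin-like 1, a glycoprotein of mesenchymal cells. Fstl1 stood at 6.24, 3.39 and 9.65 CPM at day 0, 4.62, 3.25 and 6.54 CPM at day 3, 33.5, 21.7 and 33.7 CPM at day 6, and 7.07, 26 and 11.1 CPM at day 12 in the iPSC-derived replicates. Fstl1 in BM replicates stood at 0, 1.16 and 2.87 CPM at day 0, 5.03, 6.93 and 3.46 CPM at day 3, 5.64, 8.96 and 10.2 CPM at day 6, and 27.4, 19.9 and 20.3 CPM at day 12. The iPSC-derived day 12 libraries overlapped with day 0, and the BM ones did not. Fstl1 rose by day 12 in BM macrophages (log2 fold change 4.06 ± 0.65 SE, adjusted p = 4.7e-05; 5.19 without day 0 replicate 3), and in iPSC-derived macrophages it rose by day 6 (log2 fold change 2.2 ± 0.57 SE, adjusted p = 0.00542) with no call at day 12 (adjusted p = 0.122). Msln codes for mesothelin, a surface protein of mesothelium. Msln stood at 0, 0 and 0 CPM at day 0, 0, 0 and 0 CPM at day 3, 20.3, 2.23 and 38.4 CPM at day 6, and 7.79, 0 and 10.02 CPM at day 12 in the iPSC-derived replicates. Msln in BM replicates stood at 0, 0 and 0 CPM at day 0, 0, 0 and 0 CPM at day 3, 0.106, 0 and 0 CPM at day 6, and 0, 0 and 0 CPM at day 12. It held 573 counts at iPSC-derived day 6 and 164 at day 12, against 1 count in all 12 BM libraries. Against day 0 Msln was at least 200.4-fold higher at day 6 (adjusted p = 0.00637) and at least 52.4-fold higher at day 12 (adjusted p = 0.0183) in iPSC-derived macrophages. DESeq2 called neither change (adjusted p = 0.199 at day 6 and 0.32 at day 12), and the day 12 call was lost on leaving out any 1 day 0 library (adjusted p 0.0533 to 0.0585). Igfbp7, an insulin-like growth factor binding protein of vessels, was called in BM macrophages at day 3 (at least 31.3-fold higher, adjusted p = 0.0107) and day 12 (at least 13.1-fold higher, adjusted p = 0.0252) and not in iPSC-derived macrophages at day 12 (adjusted p = 0.183). The BM day 12 call was lost without any 1 day 0 library or day 12 replicate 1 (adjusted p 0.0641 to 0.0768). Mgp, matrix Gla protein, held 0 to 15 counts per group and was not tested.

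More members were called between the sources at day 6 than at days 0, 3 and 12. The 5 fibrillar collagen chains, the cross-linking enzymes Lox and Loxl1, and the contractile genes Acta2, Cald1 and Tpm2 were then higher in iPSC-derived macrophages. At day 6, 17 of the 34 tested members were higher and 1, Thbs1, was lower in iPSC-derived than in BM macrophages, where 6.99% of all genes were higher and 6.23% lower. The median log2 fold change of the members was 2.58, against 0.01 over all genes. Col1a1 averaged 239 ± 80.2 CPM in iPSC-derived and 7.65 ± 2.31 CPM in BM macrophages (log2 fold change 4.95 ± 0.98 SE, adjusted p = 0.00191). Col3a1 averaged 183 ± 49.2 CPM in iPSC-derived and 20.5 ± 9.38 CPM in BM macrophages (log2 fold change 3.17 ± 0.90 SE, adjusted p = 0.0246), a call lost without iPSC-derived replicate 3 or any 1 BM library (adjusted p 0.0687 to 0.121). Col5a2, with 2 counts at BM day 6, all in replicate 1, differed by a ratio of 412, 95% interval 114 to 3409 (adjusted p = 0.000201). Acta2 was higher as well (log2 fold change 3.65 ± 0.72 SE, adjusted p = 0.00126; 4.24 without BM replicate 3). Lox was higher (log2 fold change 3.04 ± 0.80 SE, adjusted p = 0.0135), a call lost without any 1 BM library (adjusted p 0.0538 to 0.0682), and so was Fn1 (log2 fold change 3.25 ± 0.80 SE, adjusted p = 0.00942), a call lost without BM replicate 2 (adjusted p = 0.0588). The Tpm2 and Fstl1 calls were lost without any 1 library except iPSC-derived replicate 2 (adjusted p 0.0518 to 0.126 for Tpm2 and 0.0624 to 0.134 for Fstl1). Those of Loxl1 (adjusted p 0.0611 to 0.104), Col5a1 (0.0658 to 0.0712) and Msln (0.0828 to 0.107) were each lost without 1 of 3 libraries, and that of Dcn without 1 of 4 (0.0584 to 0.173). The Dcn call was also lost when only the compared groups were fitted (adjusted p = 0.0794). Col4a1 averaged 58.5 ± 2.58 CPM in iPSC-derived and 103 ± 36.6 CPM in BM macrophages and was not called (log2 fold change -0.82 ± 0.44 SE, adjusted p = 0.262), although all 3 iPSC-derived libraries lay below all 3 BM libraries. The count of 18 called members fell to 11, 9 and 11 without BM day 6 replicates 1, 2 and 3, and to 12 without iPSC-derived day 6 replicate 3.

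Fewer members were called between the sources at day 12, when both type IV collagen chains were lower in iPSC-derived than in BM macrophages. At day 12, 4 members were higher and 3 lower in iPSC-derived than in BM macrophages, where 5.03% of all genes were higher and 4.74% lower, and the median log2 fold change was 0.24. Ccn1 averaged 82.8 ± 57.1 CPM in iPSC-derived and 15.5 ± 0.774 CPM in BM macrophages (log2 fold change 2.42 ± 0.47 SE, adjusted p = 0.0011). Col1a2 (log2 fold change 2.34 ± 0.68 SE, adjusted p = 0.034), Col5a2 (log2 fold change 3.69 ± 1.00 SE, adjusted p = 0.0193; 5.08 without BM replicate 1) and Msln (at least 59.2-fold higher, adjusted p = 0.0336) were the other members that were higher. These calls were fragile. That of Col1a2 was lost without any 1 of the 6 libraries (adjusted p 0.0606 to 0.134) and in DESeq2 (adjusted p = 0.0672). That of Col5a2 was lost without iPSC-derived replicate 3 or BM replicate 2 or 3 (adjusted p 0.056 to 0.0931), and that of Msln without any library except iPSC-derived replicate 2 (adjusted p 0.0705 to 0.101) and in DESeq2 (adjusted p = 0.423). Col4a1 averaged 35.8 ± 20.8 CPM in iPSC-derived and 107 ± 33.9 CPM in BM macrophages (log2 fold change -1.58 ± 0.45 SE, adjusted p = 0.0256). Col4a2 averaged 17.3 ± 10.3 CPM in iPSC-derived and 51 ± 18.5 CPM in BM macrophages (log2 fold change -1.56 ± 0.45 SE, adjusted p = 0.0272). Both fell short of the threshold without iPSC-derived replicate 2 or 3 or BM replicate 1 or 2, at adjusted p values up to 0.148, and when only the 2 groups were fitted, at 0.052 and 0.0553. Thbs1 was lower in iPSC-derived macrophages (log2 fold change -2.6 ± 0.24 SE, adjusted p = 5.8e-08). The count of 7 called members fell to 4 and 3 without iPSC-derived replicates 2 and 3, and to 3, 2 and 4 without BM replicates 1, 2 and 3.

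**Figure D4:**
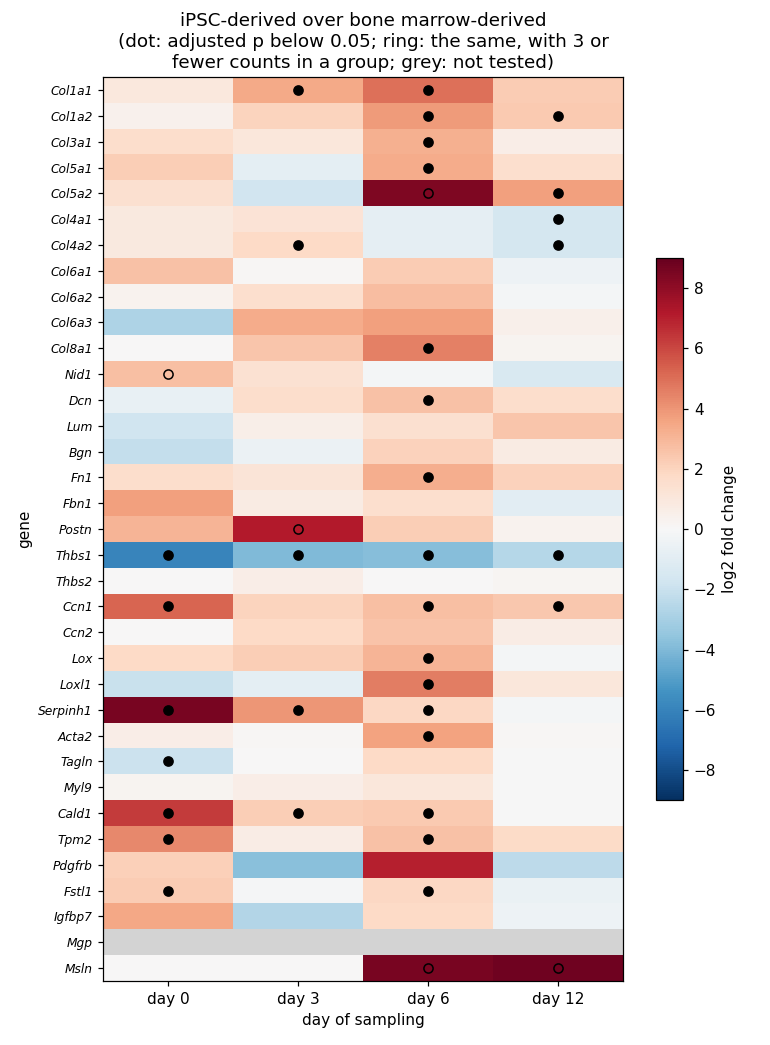
Log2 fold change of iPSC-derived over BM macrophages at each day for each member, red where iPSC-derived is higher and blue where BM is higher; filled dots have an adjusted p below 0.05, rings the same with 3 or fewer counts in a group, and Mgp was not tested. Day 6 holds the most dots, and Thbs1 is blue at all 4 days.

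At day 0, before co-culture, 6 members were higher and 2 lower in iPSC-derived than in BM macrophages, where 18.9% of all genes were higher and 17.1% lower, so the share of members called was below that of all genes. Serpinh1 averaged 128 ± 52.8 CPM in iPSC-derived and 0.319 ± 0.352 CPM in BM macrophages (log2 fold change 8.54 ± 0.56 SE, adjusted p = 4.8e-11), and Cald1 averaged 23.6 ± 4.17 CPM in iPSC-derived and 0.28 ± 0.29 CPM in BM macrophages (log2 fold change 6.29 ± 0.58 SE, adjusted p = 6.7e-09). Without BM day 0 replicate 2 these log2 fold changes were 9.84 and 7.4. Ccn1, Tpm2, Fstl1 and Nid1 were the other members higher in iPSC-derived macrophages, and the Nid1 call was lost without 1 of 4 libraries (iPSC-derived replicates 1 and 3, BM replicates 1 and 3; adjusted p 0.0514 to 0.201). Thbs1 (log2 fold change -5.92 ± 0.28 SE, adjusted p = 2.8e-13) and Tagln (log2 fold change -1.9 ± 0.67 SE, adjusted p = 0.0289; -2.53 without iPSC-derived replicate 2) were lower, and the Tagln call was lost without iPSC-derived replicate 1 or 3 or BM replicate 1 or 2 (adjusted p 0.0581 to 0.12). When only the compared groups were fitted, the day 0 calls of Tagln and Fstl1 were lost (adjusted p = 0.0562 and 0.0957). At day 3, 5 members were higher (Col1a1, Col4a2, Postn, Serpinh1 and Cald1) and Thbs1 was lower, where 8.94% of all genes were higher and 8.92% lower. DESeq2 called 10 members, and the share of all genes it called is not given here. Leaving out 1 library could end the calls of Col1a1 (adjusted p 0.0762 to 0.127), Col4a2 (0.0548 to 0.0716) and Postn (0.0888 to 0.121). The Col1a1 call was also lost when only the compared groups were fitted (adjusted p = 0.0655). Tested as a difference of differences, the change by day 12 was larger in iPSC-derived macrophages for 1 member, Thbs1, and smaller for 5, Serpinh1, Cald1, Nid1, Fstl1 and Ccn1, where 9.07% and 11% of all genes were called in these directions. The Nid1 call was lost without iPSC-derived day 0 replicate 1 (adjusted p = 0.0558) and that of Ccn1 without any 1 of 8 libraries (adjusted p 0.0506 to 0.142).

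Levels of different genes were set side by side only per length, as RPKM, which divides CPM by the summed exon length. By mean RPKM at day 12, the leading members in iPSC-derived macrophages were Ccn1 at 41, Dcn at 23.5, Fn1 at 20.2 and Col1a1 at 17.2. In BM macrophages they were Thbs1 at 47.1, Col4a1 at 14.4, Serpinh1 at 10.6 and Dcn at 7.79. The ratio of Col1a1 to Col1a2 in RPKM, over libraries with at least 20 counts of each, ran from 1.87 to 5.91 with a median of 3.70 in 9 iPSC-derived libraries and from 1.69 to 4.73 with a median of 2.56 in 8 BM libraries. The summed exon length was 6563 bases for Col1a1 and 12426 for Col1a2, and it can exceed the length of the transcript present. These ratios and the order of members by RPKM depend on the lengths used. In the iPSC-derived day 12 replicates the counts of Col1a1 and Col1a2 were 903 and 506, 688 and 695, and 1631 and 935. The ratio of Col4a1 to Col4a2 had a median of 1.97 in iPSC-derived and 2.14 in BM libraries, with ranges of 1.37 to 3.01 and 1.71 to 4.48. Over the 24 libraries, the genes most like Col1a1 by Pearson's r of log2 CPM were Col1a2 (r = 0.930), Prss23 (0.868), Tinagl1 (0.866), Dcn (0.861) and Col3a1 (0.860). These libraries share the rise from day 0, so the values are descriptive.

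Other genes of matrix biology were followed in lists drawn up by function. The lists hold 27 proteoglycan and matricellular, 20 basement membrane, 17 elastic fibre and microfibril, and 33 collagen genes. A further 25 modify collagen, and 21 are targets of serum response factor or contractile genes. Counts and medians cover only the genes that passed the filter, and a gene scarce in all groups did not pass. Of 19 tested proteoglycan and matricellular genes outside the members, 15 rose and 0 fell by day 12 in iPSC-derived macrophages (median log2 fold change 4.27, or 3.69 with genes at 0 counts set at their bound), and 13 rose and 1 fell in BM macrophages (4.69, or 4.65). Sparc, osteonectin, averaged 81.7 CPM at day 12 and 3.23 CPM at day 0 in iPSC-derived macrophages (log2 fold change 4.65 ± 0.54 SE, adjusted p = 1.8e-06) and 90.9 CPM at day 12 and 0.705 CPM at day 0 in BM macrophages (log2 fold change 6.92 ± 0.65 SE, adjusted p = 1.1e-07). Of 17 tested basement membrane genes, 7 rose and 1 fell in iPSC-derived and 12 rose and 1 fell in BM macrophages, with medians of 1.81 and 4.85, or 1.35 and 4.58 with bounds. Lamb1 codes for a laminin beta chain and rose by day 12 in iPSC-derived (a ratio of 201 with a 95% interval from 35.8 to 7992, adjusted p = 8.1e-07) and in BM macrophages (a ratio of 174 with a 95% interval from 47.9 to 1441, adjusted p = 2.2e-07). Nid2 rose in BM macrophages (log2 fold change 4.35 ± 0.82 SE, adjusted p = 0.000414). Of 15 tested genes of elastic fibres and microfibrils, 10 rose and 1 fell in iPSC-derived and 6 rose and 0 fell in BM macrophages (medians 4.43 and 3.17, or 3.78 and 2.29 with bounds).

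Of 23 tested collagen genes outside the members, 7 rose and 0 fell in iPSC-derived and 12 rose and 0 fell in BM macrophages by day 12 (medians 2.18 and 4.6, or 2.16 and 3.73 with bounds). Col12a1 codes for a chain that decorates type I fibrils and rose by day 12 in iPSC-derived (at least 45.1-fold higher, adjusted p = 0.00101) and in BM macrophages (at least 41.7-fold higher, adjusted p = 0.00107). Of 22 tested enzymes and chaperones that modify collagen, 9 rose and 3 fell in iPSC-derived and 9 rose and 0 fell in BM macrophages, with medians of 0.77 and 1.25. P4ha1, a prolyl hydroxylase subunit, rose in BM macrophages (log2 fold change 1.97 ± 0.12 SE, adjusted p = 4.5e-11), and P4hb, the disulfide isomerase subunit of the same enzyme, fell in iPSC-derived macrophages (log2 fold change -0.87 ± 0.12 SE, adjusted p = 4.9e-06). Of 17 tested targets of serum response factor and contractile genes, 2 rose and 4 fell in iPSC-derived macrophages (median -0.25), among them Tagln2 (log2 fold change -1.97 ± 0.21 SE, adjusted p = 1.6e-07), and 10 rose and 1 fell in BM macrophages (median 0.61), among them Cnn3 (log2 fold change 5.23 ± 0.47 SE, adjusted p = 1.1e-08). The median over all tested genes was 0.04 in both comparisons.

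Markers of other cell types were measured beside the members. The 15 fibroblast markers outside the members summed to 3.5 to 9.33 CPM at day 0, 5.85 to 11.8 at day 3, 25.8 to 40.2 at day 6 and 29.6 to 31.8 at day 12 in iPSC-derived libraries. In BM libraries they summed to 0.387 to 0.696, 6.36 to 13.1, 16.4 to 20.1 and 35.1 to 50.2 CPM on the same days. Meox2 was at 0 counts in all groups, Dpt at 3 counts in 1 group and 0 in the others, and Thy1 and Snai2 at 0 counts in all BM groups. Pdgfra is in both this list and the oligodendrocyte list, so these lists are not fully separate. The share of each gene in the sum is not given here. Of the 7 tested, 3 rose and 0 fell in iPSC-derived macrophages by day 12 (median 4.28, or 1.94 with bounds), and 5 rose and 0 fell in BM macrophages (median 6.72, or 4.48 with bounds). Pdpn, podoplanin, was among them (log2 fold change 1.61 ± 0.57 SE, adjusted p = 0.0407 in iPSC-derived; a ratio of 117 with a 95% interval from 39.8 to 569.5, adjusted p = 1.9e-06 in BM macrophages). Of 10 mural markers, Abcc9, Kcnj8 and Higd1b held at most 2 counts in any group. Of the 5 tested, 1 rose and 1 fell in iPSC-derived macrophages by day 12, and 3 rose and 0 fell in BM macrophages. Cspg4, the NG2 proteoglycan, averaged 12.5 CPM at day 12 and 57.9 CPM at day 0 in iPSC-derived macrophages and fell (log2 fold change -2.21 ± 0.64 SE, adjusted p = 0.0165), while in BM macrophages it had 0 counts at day 0 and rose (at least 11.3-fold higher, adjusted p = 0.0182). Mcam rose in both sources (log2 fold change 6.14 ± 1.13 SE, adjusted p = 0.000242 in iPSC-derived; log2 fold change 3.54 ± 1.02 SE, adjusted p = 0.0123 in BM macrophages). Mural markers summed to 26.1 to 32.3 CPM at day 12 and 27.1 to 78.7 CPM at day 0 in iPSC-derived libraries and to 7.38 to 14.1 CPM at day 12 and 0 to 2.61 CPM at day 0 in BM libraries.

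Mesothelial markers, which bear on Msln, summed to 0.109 to 0.657 CPM at day 0, 3.97 to 32.3 at day 6 and 1.71 to 14.9 at day 12 in iPSC-derived libraries. In BM libraries they summed to 0 to 0.232, 3.09 to 8.88 and 2.16 to 6.92 CPM on these days. Muc16 was at 0 counts in all groups, while Upk3b held 191 counts at iPSC-derived day 6 and 0 at BM day 6. Of 10 endothelial markers, 8 were tested. Of these, 1 rose and 2 fell in iPSC-derived and 1 rose and 0 fell in BM macrophages by day 12. Cldn5 was at 14 counts at iPSC-derived day 12 and 0 in the other groups. Neuronal markers summed to 1.72 to 2.95 CPM at day 0, 21.1 to 51.4 at day 3, 27.4 to 52.7 at day 6 and 14.7 to 29.2 at day 12 in iPSC-derived libraries and to 0 to 1.51, 50.4 to 67.8, 29.7 to 56.3 and 21.9 to 28.3 CPM in BM libraries. Of 10 neuronal markers, 8 rose in iPSC-derived and 6 in BM macrophages by day 12, among them Tubb3 (a ratio of 76.7 with a 95% interval from 13.4 to 3068, adjusted p = 1.7e-05 in iPSC-derived; log2 fold change 4.21 ± 0.69 SE, adjusted p = 5.2e-05 in BM macrophages). Of 7 tested astrocyte and glial markers, 6 rose in each source and 1 fell in iPSC-derived macrophages, with Gfap at 43 CPM at day 12 and 0.0365 CPM at day 0 in iPSC-derived and 16.6 CPM at day 12 and 0.159 CPM at day 0 in BM macrophages. Of 7 tested oligodendrocyte markers, 4 rose in iPSC-derived and 2 in BM macrophages. The part of these other cell types in the members' changes was not tested. The 12 macrophage markers summed to 14219 to 14804 CPM at day 12, against 7405 to 7960.1 CPM at day 0, in iPSC-derived libraries and to 13775 to 14555 CPM at day 12, against 13169.5 to 14069 CPM at day 0, in BM libraries. Of these 12 genes, 8 rose in iPSC-derived macrophages while 5 rose and 1 fell in BM macrophages.

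**Figure D5:**
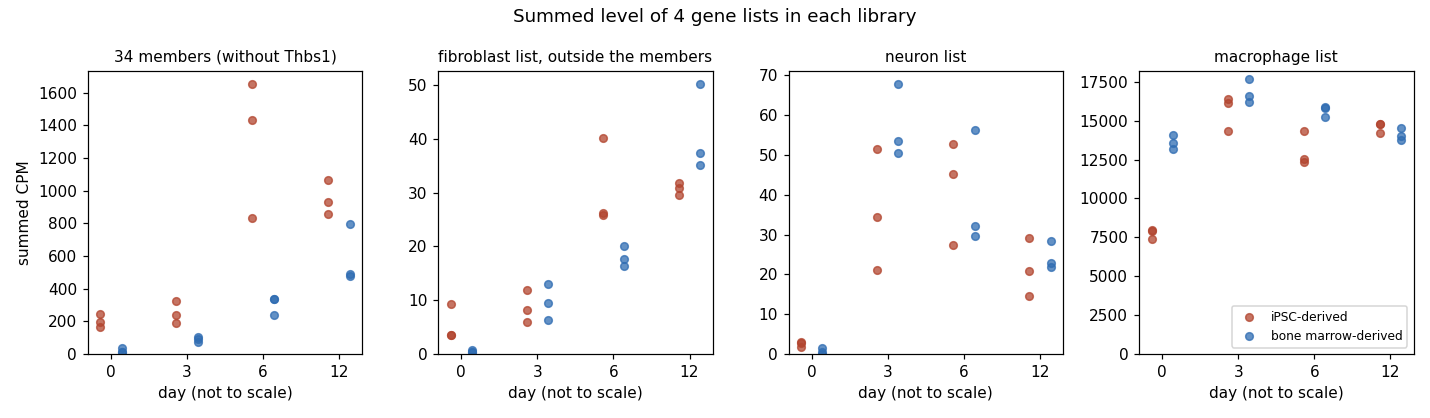
Summed CPM of the members without Thbs1, of the fibroblast list outside the members, of the neuron list and of the macrophage list in each library by day, with a linear axis from 0 in each panel. The members lie above day 0 at days 6 and 12, the neuron list lies above day 0 on all later days, and the macrophage list is far above the others.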

How the data were processed

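Read counts per gene were deposited by the authors for 24 libraries, made with a SMART-seq v2 protocol from 2 ng of total RNA, per the labels' protocols. Reads were aligned with STAR to mm10 (GRCm38), per the submitters' processing notes. The authors counted read pairs per gene with featureCounts 1.5.0-p1 on GENCODE vM9, per the file headers, without a strand setting and without reads shared between genes, so reads of overlapping or antisense genes cannot be told apart. Of 47643 gene IDs, 47224 matched a symbol, and the other 419 held 0.0635% of counts.

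From the counts, edgeR 4.0.16 (R 4.3.3) gave quasi-likelihood tests on all 24 libraries in 1 fit over the 8 groups, with TMM scaling, Benjamini-Hochberg adjustment within each of 15 comparisons, and a filter (minimum count 10, total 15) that kept 15000 genes. SE is the log2 fold change divided by the square root of F. DESeq2 1.42.0 and other settings were alternatives, and the fit was tested on simulated data. RPKM uses the exon length in the deposited file. Promoter windows are from RefSeq (GRCm38.p6), matched by symbol for 22 members.

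The members, gene lists and settings were chosen with earlier results of these data known. Values in every library are given for members with a mean of at least 20 CPM in a group. Genes of other lists are named from the 4 with the lowest adjusted p at day 12 in each source, apart from markers named for their low counts. Nothing in the labels says that replicates came from separate animals, so p-values measure the spread between these libraries, which may be partly technical.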

Additional observations from a re-analysis of the deposited data

Results flagged for a closer look

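For 6 members the change by day 12 differed between iPSC-derived and BM macrophages in edgeR's quasi-likelihood test of the difference between the changes, with Benjamini-Hochberg adjustment over 15000 genes. The values are the log2 fold change at day 12 over day 0 in iPSC-derived minus that in BM macrophages, with 3 libraries per group. In this test 20.1% of all genes were called, so the share called among the 34 tested members was not above that of all genes. Serpinh1 differed by -8.72 ± 0.67 SE (adjusted p = 5.5e-09) and fell in iPSC-derived but rose in BM macrophages. Without BM day 0 replicate 2 the Serpinh1 difference was -9.98. Thbs1 differed by 3.32 ± 0.34 SE (adjusted p = 1.8e-07) and rose in iPSC-derived but fell in BM macrophages. Cald1 differed by -6.3 ± 0.70 SE (adjusted p = 5.9e-07), with a rise called in BM macrophages and no call in iPSC-derived ones, and was -7.37 without BM day 0 replicate 2. Nid1 differed by -4.06 ± 1.05 SE (adjusted p = 0.00663) and rose in both sources, and the difference missed the threshold without iPSC-derived day 0 replicate 1 (-3.24, adjusted p = 0.0558) and was -4.87 without BM day 0 replicate 2. Fstl1 differed by -2.86 ± 0.84 SE (adjusted p = 0.0158), at -3.55 without iPSC-derived day 12 replicate 2 and -3.99 without BM day 0 replicate 3. Ccn1 differed by -2.8 ± 0.98 SE (adjusted p = 0.0447) and rose in both sources, and the difference missed the threshold without any 1 of 8 libraries (adjusted p 0.0506 to 0.142). Without BM day 0 replicate 2 the Ccn1 difference was -3.99, and with a replicate block within source it missed the threshold (adjusted p = 0.0587). When only the compared groups were fitted, the differences of Ccn1 and Fstl1 missed the threshold, at adjusted p values of 0.099 and 0.0536. At day 0, Serpinh1, Cald1, Nid1, Fstl1 and Ccn1 were higher and Thbs1 was lower in iPSC-derived than in BM macrophages. No explanation of these differences was tested.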

How the results depend on the processing

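No called member value reversed under any alternative. Of 188 called values, 119 kept their call in every setting in which they were tested, and some of these were not tested in all settings. DESeq2 style scaling in edgeR and no filter on low counts lost 0 of 188, no scaling factors lost 1, DESeq2 lost 7, and fits restricted to the compared groups lost 28 of 170. A replicate block within source lost 3 of 149 (Fn1 in iPSC-derived macrophages at day 3, Tpm2 in BM macrophages at day 6 and the Ccn1 difference), and a block across sources lost 1 of 39 (Postn at day 3). Leaving out 1 library lost 231 of 1164 values. The numbers of members called with no filter on low counts, beside those reported, were in iPSC-derived macrophages 22 against 13 (day 3 over 0), 25 against 13 (day 6 over 3) and 8 against 1 (day 12 over 6). In BM macrophages they were 21 against 9 (day 3 over 0), 14 against 6 (day 6 over 3) and 15 against 1 (day 12 over 6). For iPSC-derived over BM they were 13 against 8 (day 0), 16 against 6 (day 3) and 11 against 7 (day 12), and for the difference of changes 13 against 6. The restricted fits called 6, 1 and 0 members in the same 3 iPSC-derived steps. There 8.55%, 0.00803% and 0% of all tested genes were higher and 6.81%, 0.00803% and 0% lower. In BM macrophages they called 12 members at day 6 over 3, where 4.41% of all genes were higher and 5.15% lower. At day 12 over 6 in BM macrophages they called 15, where 4.43% were higher and 3.26% lower. Between the sources at day 0 they called 5, where 21.5% were higher and 18.6% lower. DESeq2 called 3 and 2 members at day 12 over 6 in iPSC-derived and BM macrophages, and 10 between the sources at day 3. The cause of these shifts was not tested. For fits with no filter, DESeq2, 1 library left out or a replicate block, the share of all genes called is not given here. Those counts are therefore no result about the members in particular. Leaving out 1 library gave 8 to 14 members for iPSC-derived day 3 over 0, 3 to 16 for day 6 over 3 and 0 to 2 for day 12 over 6. It gave 10 to 16 for BM day 6 over 0, and 9 to 19 and 2 to 5 between the sources at days 6 and 12. Whether replicate numbers pair the libraries is not settled by these data. Library names in the file headers run in order by replicate in iPSC-derived macrophages, with days 0 to 12 in each run. In BM macrophages they run by day, and all of them follow the iPSC-derived names. This order alone does not show whether libraries were paired. In deviation from the group mean, same-numbered iPSC-derived libraries correlated at -0.0545 to 0.161. Their median was 0.0317, against -0.0168 for libraries of other numbers, and 4 of 18 pairs were over 0.1. In BM macrophages same-numbered libraries correlated at -0.0209 to 0.0397, with a median of 0.0113, against -0.00536 for other numbers. The main fit treats all libraries as unpaired. With the replicate block, 14, 27, 26, 16 and 1 members were called in iPSC-derived macrophages (days 3, 6 and 12 over 0, 6 over 3, 12 over 6), 10, 19, 28, 6 and 1 in BM macrophages, 8, 5, 18 and 7 between the sources at days 0, 3, 6 and 12, and 5 for the difference of changes. Members with 0 to 3 counts in a group are limited by depth.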
